A study of Mus musculus with 14 samples.

Results

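The genes described here encode the proteasome subunits and the proteins that regulate or assemble the proteasome. They were chosen by name, as every protein-coding gene of the gene count table whose symbol begins with Psm, a letter from a to g and a digit. The rule found 50 of 55487 genes, and 46 of them passed the filter on low counts that left 16915 genes for testing. One of the 46, *Psmc3ip*, matches the name rule although its product is a meiotic recombination factor and no part of the proteasome. It is counted among the 46 and named where it decides a count.

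RNA was sequenced from intervertebral discs (IVDs) of 14 male mice in 2 models of type 2 diabetes, with 1 library per mouse and 5 discs pooled in each. The db/db mice (n = 3) are homozygous for the *Lepr* db mutation in the leptin receptor, and their db/+ controls (n = 3) are heterozygous littermates that therefore also carry 1 mutant allele. Both were 3 months old and received no treatment. The STZ-HFD mice (n = 4) are C57BL/6J mice that entered the study at 12 weeks of age, ate a high-fat diet for 4 to 6 weeks, received a single dose of 100 mg/kg streptozocin, a toxin of the insulin-producing beta cells, and stayed on the diet for 12 weeks after it. The Con+Veh mice (n = 4), labelled wild type, are C57BL/6J mice of the same starting age given standard chow and the citrate buffer alone. Diet and streptozocin were given together, so their effects cannot be told apart, and the leptin receptor mutation is carried by all tissues. Age, genotype and cohort differ between the db and the STZ-HFD experiments, so each model is compared with its own control, and the models are compared only through the difference of those contrasts.

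The proteasome degrades proteins that have been tagged with ubiquitin. Its 20S core is a barrel of stacked rings, in which alpha subunits form the outer gates and beta subunits the inner chamber, with the proteolytic sites on *Psmb5*, *Psmb6* and *Psmb7*. Interferon induces the immunoproteasome subunits *Psmb8*, *Psmb9* and *Psmb10*, which replace those catalytic subunits during assembly and favour peptides for antigen presentation. The 19S cap recognises ubiquitin chains, removes them and unfolds the substrate with a ring of ATPases. In the disc, a tissue of few cells in an abundant matrix, the pathway serves the turnover of proteins inside cells.

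Total counts ranged from 16076908 to 58943169 per library, and 21.7% to 48.2% of them fell on a single gene model, CT010467.1. Levels are given as CPM, the count scaled to the library total times its TMM factor (a correction for composition). On that scale 3 counts corresponded to 0.0431 CPM (db/db replicate 2) to 0.163 CPM (Con+Veh replicate 4), a limit that covers counting error only. Disc and cartilage markers (11 genes such as *Acan* and *Col2a1*) were present in all groups, with summed levels of 37210 to 58060 CPM in db/+, 16950 to 44470 in db/db, 4010 to 16400 in Con+Veh and 1085 to 2310 in STZ-HFD. Skeletal muscle markers (12 genes such as *Ckm* and *Acta1*) were also present, at 4805 to 9466 CPM in db/+, 3091 to 5100 in db/db, 8079 to 11230 in Con+Veh and 7733 to 23730 in STZ-HFD. The libraries therefore hold RNA of more than disc cells, and fewer cells of a type and less RNA per cell cannot be told apart in them. Sample quality weights, by which the fit counts a library more or less, ran from 0.275 in Con+Veh replicate 1 and 0.379 in STZ-HFD replicate 1 to 3.05 in Con+Veh replicate 3. The labels do not say whether extraction or library preparation was shared within a group, so p-values measure the spread between these mice and their preparations.

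Proteasome genes were expressed over a wide range in the disc libraries. Per kilobase of exon, the median level over the 14 libraries was highest for the ATPase *Psmc5* (61.0 CPM per kb), followed by the ATPase *Psmc3* (49.9), the alpha subunit *Psma6* (43.0) and the ATPase *Psmc1* (36.4). These 4 genes led in every group by mean level, though their order differed. In db/db *Psmc3* (45.4 CPM per kb) and *Psma6* (43.7) were ahead of *Psmc5* (41.6). *Psma6* was behind *Psmc1* in db/+ (22.8 against 31.3) and narrowly in Con+Veh (45.2 against 45.6). The lowest level per kilobase among the tested genes was that of *Psmb9* (0.200 CPM per kb), with *Psmd9*, a chaperone of 19S assembly, at 0.654 and *Psmc3ip* at 0.810. Subunits that occur in equal numbers in the assembled particle thus differed widely in RNA level, for example *Psma5* at 2.24 and *Psma6* at 43.0 CPM per kb in the alpha ring, and *Psmb7* at 2.33 and *Psmb4* at 19.1 in the beta ring. The immunoproteasome subunits *Psmb8* (1.27 CPM per kb) and *Psmb10* (3.21) lay below the standard beta subunits by this measure, except that *Psmb10* exceeded *Psmb7*.

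**Figure D1:**
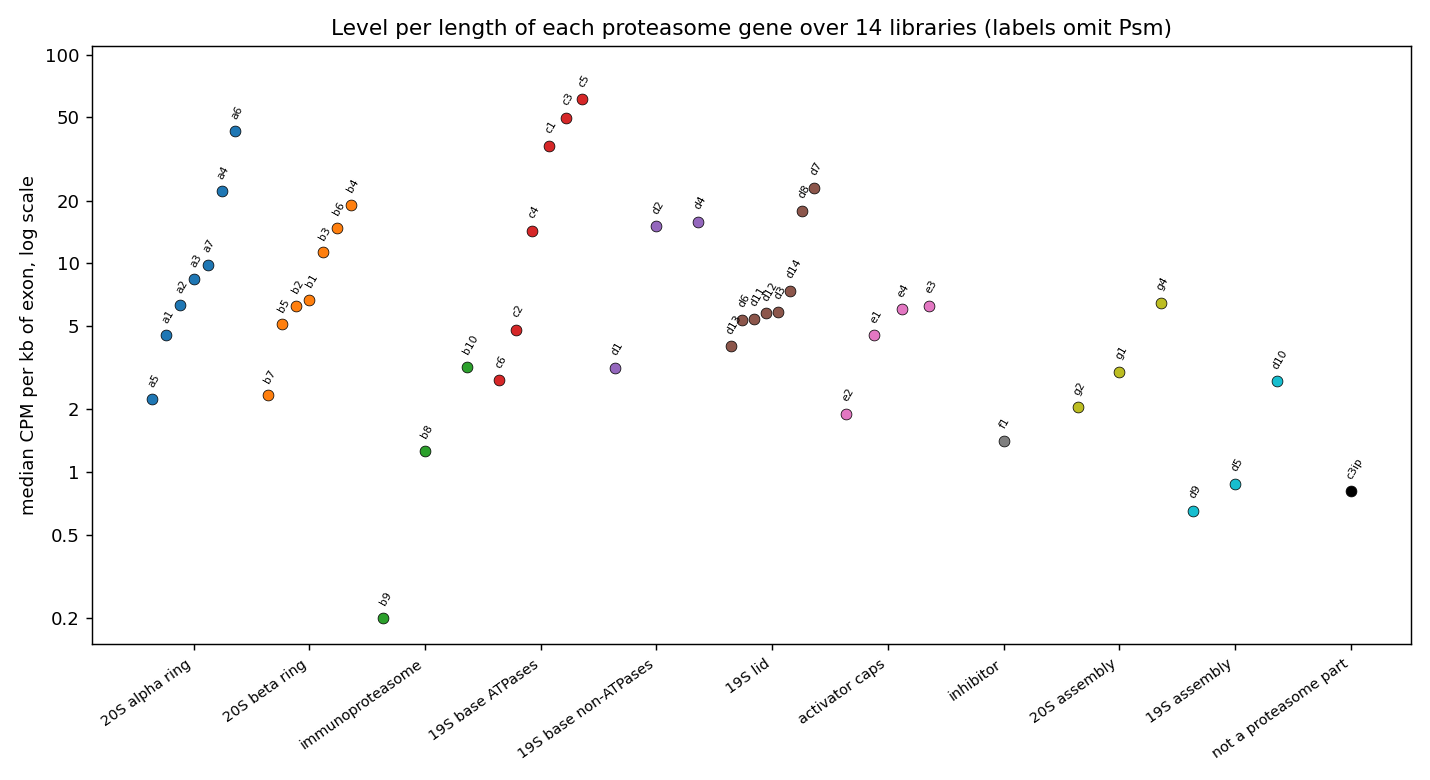
Median CPM per kb of exon over 14 libraries (log scale) for each of the 46 tested genes, by class, with the letters Psm left off the names. *Psmc5*, *Psmc3* and *Psma6* stand at the top, at 61.0, 49.9 and 43.0, and *Psmb9* at the bottom, at 0.200.

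The 4 genes that did not pass the filter are those of restricted or low expression. *Psma8*, the testis-specific alpha subunit, had 0 to 48 counts per library, and the 48 were all in STZ-HFD replicate 1. *Psmb11*, the thymus-specific beta subunit, had 0 to 22 counts. *Psmg3*, a chaperone of 20S assembly, had 8 to 43 counts, and *Psme2b*, an intronless copy of the activator gene *Psme2*, had 8 to 53. Reads of *Psme2b* and *Psme2* may be assigned to either because the genes are close copies. In addition, 5 pseudogenes of Psm genes had at most 22 counts in any library. Where the counting did not use strand, reads of overlapping genes cannot be separated, and the sources used here do not state its strand setting. Exons of 15 of the 50 genes overlap those of another gene, 12 of them on the opposite strand, among them *Psmb9* with *Tap1* (212 bases), *Psmb8* with Gm20496 (498 bases), *Psmc3* with *Slc39a13* (215 bases) and *Psmc3ip* with *Mlx* (385 bases).

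Promoter sequences are shown for the members with the smallest p in each model, *Psma6* and *Psmd12*, and for the neighbouring immunoproteasome genes *Psmb8* and *Psmb9*. They are RefSeq windows of GRCm38.p6 from 250 bases before to 50 bases after an annotated start, written 5′ to 3′ on the strand of the gene. Capitals mark matches to any of 4 motifs searched on both strands, namely TGACNNNGC (the core of the antioxidant response element, bound by the transcription factors Nfe2l1 and Nfe2l2), GAAANNGAA (the core of the interferon-stimulated response element), TTCNNNGAA (the core of the GAS element) and CCAAT. *Psma6* has 2 windows. In the upstream one, at the start of the gene model used here, CCAAT lay 29 bases before the start and, read on the opposite strand, 136 bases before it. The windows of *Psma6* lie at chr12:55383972-55384271 and chr12:55398575-55398874 on the plus strand, and the downstream one held no match.
Psma6 upstream: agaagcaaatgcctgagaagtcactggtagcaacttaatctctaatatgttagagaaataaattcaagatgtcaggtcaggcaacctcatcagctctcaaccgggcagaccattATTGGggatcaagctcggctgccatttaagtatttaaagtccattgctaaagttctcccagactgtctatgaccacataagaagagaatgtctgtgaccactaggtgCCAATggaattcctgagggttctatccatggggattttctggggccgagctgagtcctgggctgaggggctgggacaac
Psma6 downstream: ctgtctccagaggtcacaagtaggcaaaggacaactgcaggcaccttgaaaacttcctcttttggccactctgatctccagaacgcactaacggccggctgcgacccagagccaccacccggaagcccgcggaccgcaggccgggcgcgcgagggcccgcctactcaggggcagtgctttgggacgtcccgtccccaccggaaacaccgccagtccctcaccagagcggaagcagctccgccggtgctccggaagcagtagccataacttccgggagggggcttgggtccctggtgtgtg
The window of *Psmd12*, at chr11:107479278-107479577 on the plus strand, held TGACNNNGC, read on the opposite strand, 247 bases before the start.
Psmd12: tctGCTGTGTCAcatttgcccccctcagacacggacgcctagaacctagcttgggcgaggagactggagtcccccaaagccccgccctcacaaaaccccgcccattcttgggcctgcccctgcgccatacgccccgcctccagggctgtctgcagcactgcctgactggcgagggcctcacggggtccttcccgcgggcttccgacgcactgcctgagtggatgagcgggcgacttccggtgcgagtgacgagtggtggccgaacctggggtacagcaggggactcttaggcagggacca
The window of *Psmb8*, at chr17:34197945-34198244 on the plus strand, held TTCNNNGAA 97 bases before the start, and that of *Psmb9*, at chr17:34187281-34187580 on the minus strand, held CCAAT on the opposite strand 8 bases before the start.
Psmb8: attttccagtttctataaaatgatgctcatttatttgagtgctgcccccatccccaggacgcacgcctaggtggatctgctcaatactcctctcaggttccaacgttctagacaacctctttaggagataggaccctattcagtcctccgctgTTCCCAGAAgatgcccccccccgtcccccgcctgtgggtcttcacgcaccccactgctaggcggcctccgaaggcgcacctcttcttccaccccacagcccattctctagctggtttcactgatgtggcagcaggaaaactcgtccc
Psmb9: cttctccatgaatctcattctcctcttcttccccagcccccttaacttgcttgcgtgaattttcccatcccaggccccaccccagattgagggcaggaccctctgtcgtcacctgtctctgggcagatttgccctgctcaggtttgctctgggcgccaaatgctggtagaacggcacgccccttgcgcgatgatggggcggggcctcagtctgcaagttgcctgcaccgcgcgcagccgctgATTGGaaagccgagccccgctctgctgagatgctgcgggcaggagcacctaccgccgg

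Of the 50 genes, 42 had a RefSeq window, 45 windows in all. TGACNNNGC was found in 13.3% of them and in 12.4% of the 32851 promoter windows of the mouse, and the 6 genes that held it were *Psmb5*, *Psmb6*, *Psmc6*, *Psmd12*, *Psmd9* and *Psme4*. CCAAT was found in 33.3% against 37.4%, and TTCNNNGAA in 6.67% against 8.3%. GAAANNGAA was found in 15.6% of the windows, in 7 genes, against 8.56% of all windows. A match is a run of letters and not a measured binding site.

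The first comparison asks whether proteasome RNA differed between db/db and db/+ discs. Calls required an adjusted p below 0.05 together with a log2 fold change of 1 or more in size. This held for 0 of 46 proteasome genes, and none passed the adjusted p alone (limma with Benjamini-Hochberg adjustment over all genes tested). Of all genes tested, 1.66% and 1.93% passed these rules. At an unadjusted p under 0.05, 7 of the 46 were higher and 4 lower in db/db, where 21.1% of all genes met that mark. edgeR's quasi-likelihood test and DESeq2 each gave 3 higher and 1 lower at the unadjusted mark and 0 after adjustment. With 1 library left out, the unadjusted counts ran from 2 to 8 higher and from 0 to 6 lower, with 2 higher and 4 lower without db/db replicate 1, 7 and 0 without db/db replicate 2, 4 and 1 without db/+ replicate 2, and 8 and 1 without db/+ replicate 1. The median log2 fold change of the 46 was 0.08, with 26 above 0, and that of all genes was -0.04. Without db/db replicate 3 the median of the 46 was -0.03, and without db/+ replicate 3 it was -0.06.

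The alpha ring genes, which form the gates of the core, all had log2 fold changes above 0 in db/db (7 of 7, median 0.34), whereas the immunoproteasome genes all had values below 0 (3 of 3, median -0.81). The beta ring was mixed, with 3 of 7 above 0 (median -0.11), as were the 19S ATPases (4 of 6, median 0.20) and the 19S lid (5 of 8, median 0.15). None of these genes passed the adjusted p, and the alpha ring and the immunoproteasome also differed in GC content, as given below. In 10 genes every db/db library was above every db/+ library (*Psma1*, *Psma3*, *Psma6*, *Psmb1*, *Psmc2*, *Psmc6*, *Psmd1*, *Psmd6*, *Psme4* and *Psmg1*), a separation met by 14.1% of all genes. In 2 genes, *Psmd3* and *Psmd9*, every db/db library was below, as in 11.7% of all genes.

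*Psma6* (ENSMUSG00000021024, chr12:55384222-55418454, GRCm38), the alpha subunit with the smallest p in this comparison, was at 62.8, 46.8 and 52.1 CPM in db/db and at 32.1, 26.5 and 25.7 CPM in db/+. The db/db libraries were all higher, with no overlap. Its log2 fold change was 0.93 (SE 0.28) at an adjusted p of 0.0776 (limma with Benjamini-Hochberg adjustment), and of 28 alternatives 1, the db libraries fitted alone, brought it below 0.05 (0.0352), with adjusted p up to 0.371 under the others. *Psma1*, another alpha subunit, was at 20.2, 13.9 and 18.4 CPM in db/db and at 10.1, 7.51 and 9.96 CPM in db/+. Again the groups did not overlap, and the log2 fold change was 0.94 (SE 0.32, adjusted p = 0.119). *Psmc2* and *Psmc6* encode ATPases of the 19S base. *Psmc2* was at 24.1, 19.7 and 21.9 CPM in db/db and at 12.5, 17.7 and 13.6 CPM in db/+, a log2 fold change of 0.57 (SE 0.21, adjusted p = 0.140). *Psmc6* was at 10.7, 8.08 and 10.1 CPM in db/db and at 5.74, 6.38 and 5.50 CPM in db/+, a log2 fold change of 0.69 (SE 0.26, adjusted p = 0.144). Both ATPases were separated between the groups, the nearest *Psmc2* libraries being 19.7 and 17.7 CPM.

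In the other direction stood *Psmb5*, which carries the chymotrypsin-like site, and *Psmd4*, a ubiquitin receptor of the 19S cap. *Psmb5* was at 2.77, 2.54 and 4.24 CPM in db/db and at 5.83, 7.06 and 3.89 CPM in db/+, a log2 fold change of -0.84 (SE 0.31, adjusted p = 0.140). *Psmd4* was at 28.6, 11.7 and 13.5 CPM in db/db and at 36.7, 41.3 and 16.6 CPM in db/+, a log2 fold change of -0.90 (SE 0.33, adjusted p = 0.140). With the skeletal muscle score as a covariate *Psmd4* turned to 0.20, and the muscle markers were lower in db/db. In both genes 1 db/+ library, replicate 3, lay among the db/db libraries.

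The immunoproteasome genes were low in every group. *Psmb8*, the inducible counterpart of *Psmb5*, was at 1.68, 2.45 and 2.20 CPM in db/db and at 2.42, 5.69 and 3.23 CPM in db/+, and the groups overlapped narrowly. *Psmb10*, the counterpart of *Psmb7*, was at 5.07, 2.79 and 2.06 CPM in db/db and at 6.46, 6.94 and 3.54 CPM in db/+. *Psmb9*, the counterpart of *Psmb6*, was at 0.299, 1.18 and 0.456 CPM in db/db and at 1.25, 0.522 and 1.34 CPM in db/+, with 13 to 86 counts per library over all groups. The log2 fold changes were -0.81 for *Psmb8* (SE 0.39, adjusted p = 0.246), -0.86 for *Psmb10* (SE 0.37, adjusted p = 0.201) and -0.69 for *Psmb9* (SE 0.60, adjusted p = 0.532). Over 28 alternatives they ran from -1.76 to -0.44, from -1.20 to -0.0054 and from -1.54 to -0.28 in the same order. The groups overlapped in *Psmb9* and *Psmb10* as well, and the 95% interval of each gene reached below -1.

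The remaining classes also had no call. Of the 19S base subunits that are not ATPases, 1 of 3 was above 0 (median -0.44). Of the 4 activator caps tested, which open the core without ubiquitin, *Psme1*, *Psme2* and *Psme3* were below 0 and *Psme4* above, between -0.51 and 0.42. Among the 20S assembly chaperones, *Psmg1* was at 7.51, 6.43 and 6.38 CPM in db/db and at 3.88, 3.98 and 4.17 CPM in db/+, which do not overlap, while *Psmg2* and *Psmg4* were at log2 fold changes of 0.31 and -0.14. The 19S assembly chaperones ranged from -0.41 (*Psmd9*) to 0.53 (*Psmd10*), and the inhibitor *Psmf1* was at 0.21. For 26 of the 46 genes the 95% interval lay within a log2 fold change of 1 in either direction.

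GC content moved with these values. Over the 46 genes, Spearman's rho between GC content of the longest transcript and log2 fold change in db/db was -0.656, and over 16899 genes it was -0.428, as a description across genes that share libraries. The 25 members below 50% GC had a median log2 fold change of 0.34 (20 above 0), and the 21 above had -0.35 (6 above 0). After removal of each library's GC trend the medians were 0.18 and -0.23, the rho over the members was -0.248, and again no member was called. *Psmc2* was then at a log2 fold change of 0.30, *Psmc6* at 0.36, *Psmb5* at -0.44 and *Psmb10* at -0.46, and *Psma6* at 0.85. The alpha ring genes lay at 39.37% to 49.15% GC except *Psma7* (57.36%), and *Psmb8*, *Psmb9* and *Psmb10* at 52.49%, 54.13% and 56.52%. Of the genes separated upward in db/db, all but *Psmg1* (51.53%) were below 50% GC. *Psmd3* and *Psmd9*, separated downward, were above it. The part of GC content in the values of classes and of single genes was not tested.

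**Figure D2:**
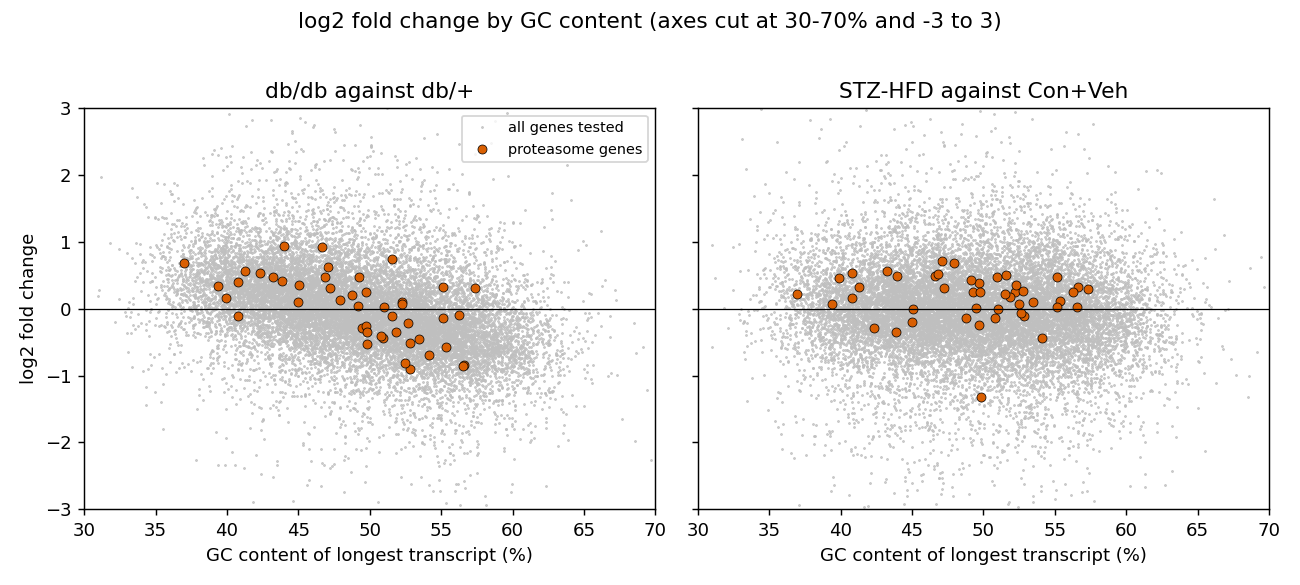
log2 fold change against GC content of the longest transcript (%), for all genes (grey) and the proteasome genes (orange), in db/db (left) and STZ-HFD (right). In db/db the proteasome genes run from higher values at low GC to lower values at high GC (rho -0.656), and in STZ-HFD the slope is slight (rho -0.153).

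The second comparison asks the same of STZ-HFD and Con+Veh discs. Again 0 of 46 proteasome genes were called, and 0 passed the adjusted p alone (limma with Benjamini-Hochberg adjustment), where 2.61% and 3.45% of all genes passed. At an unadjusted p under 0.05, 5 were higher and 1, *Psmc3ip*, was lower, where 17.9% of all genes met that mark. edgeR's quasi-likelihood test and DESeq2 each gave 1 higher and 0 lower, and 0 after adjustment. With 1 library left out, the unadjusted counts ran from 0 to 10 higher and from 0 to 2 lower, with 10 and 1 without STZ-HFD replicate 1, 0 and 2 without STZ-HFD replicate 4, and 1 and 1 without Con+Veh replicate 3 or without STZ-HFD replicate 3. Without *Psmc3ip* 5 were higher and 0 lower of 45. The members' median log2 fold change was 0.23, with 35 of 46 above 0, beside a median of -0.04 over all genes. With the skeletal muscle score of each library as a covariate the direction turned, to a median of -0.12 with 16 of 46 above 0 and with 0 higher and 5 lower at the unadjusted mark. That score, the mean log2 CPM of the muscle markers, was 7.96 to 8.20 in Con+Veh and 9.11 to 9.42 in STZ-HFD replicates 2 to 4. Only STZ-HFD replicate 1 (7.88, weight 0.379) lay near the controls. Score and group thus went largely together, and this fit cannot tell them apart. Replicates 3 and 4 of Con+Veh, which carry the highest weights (3.05 and 1.81), stood apart from the other pair, with summed endothelial markers of 868.6 CPM in each against 195 and 229 CPM in replicates 1 and 2 and 189 to 458 CPM in STZ-HFD. They also differed least from each other of all 18 pairs within groups (chi-square per degree of freedom 54.8, against up to 578.1). Without both, the members' median was 0.41 with 40 of 46 above 0, 1 higher and 0 lower at the unadjusted mark, and 0 passed the adjusted p. In 1 gene, *Psmb6*, every STZ-HFD library was above every Con+Veh library (1.97% of all genes did so), and in 0 genes below (2.77%).

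By class and without the covariate, all 19S ATPases lay above 0 (6 of 6, median 0.27), as did 7 of 8 lid subunits (median 0.42), 6 of 7 alpha subunits (median 0.30) and 6 of 7 beta subunits (median 0.26). The immunoproteasome genes had a median of 0.02 and the 19S assembly chaperones of -0.13, with 0 of 3 of the latter above 0. Of the other classes, 2 of 3 base subunits that are not ATPases (median 0.47), 3 of 4 activator caps (median 0.25) and 3 of 3 chaperones of 20S assembly (median 0.22) were above 0, and *Psmf1* was at -0.13. For 31 of the 46 genes the 95% interval lay within a log2 fold change of 1 in either direction.

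**Figure D3:**
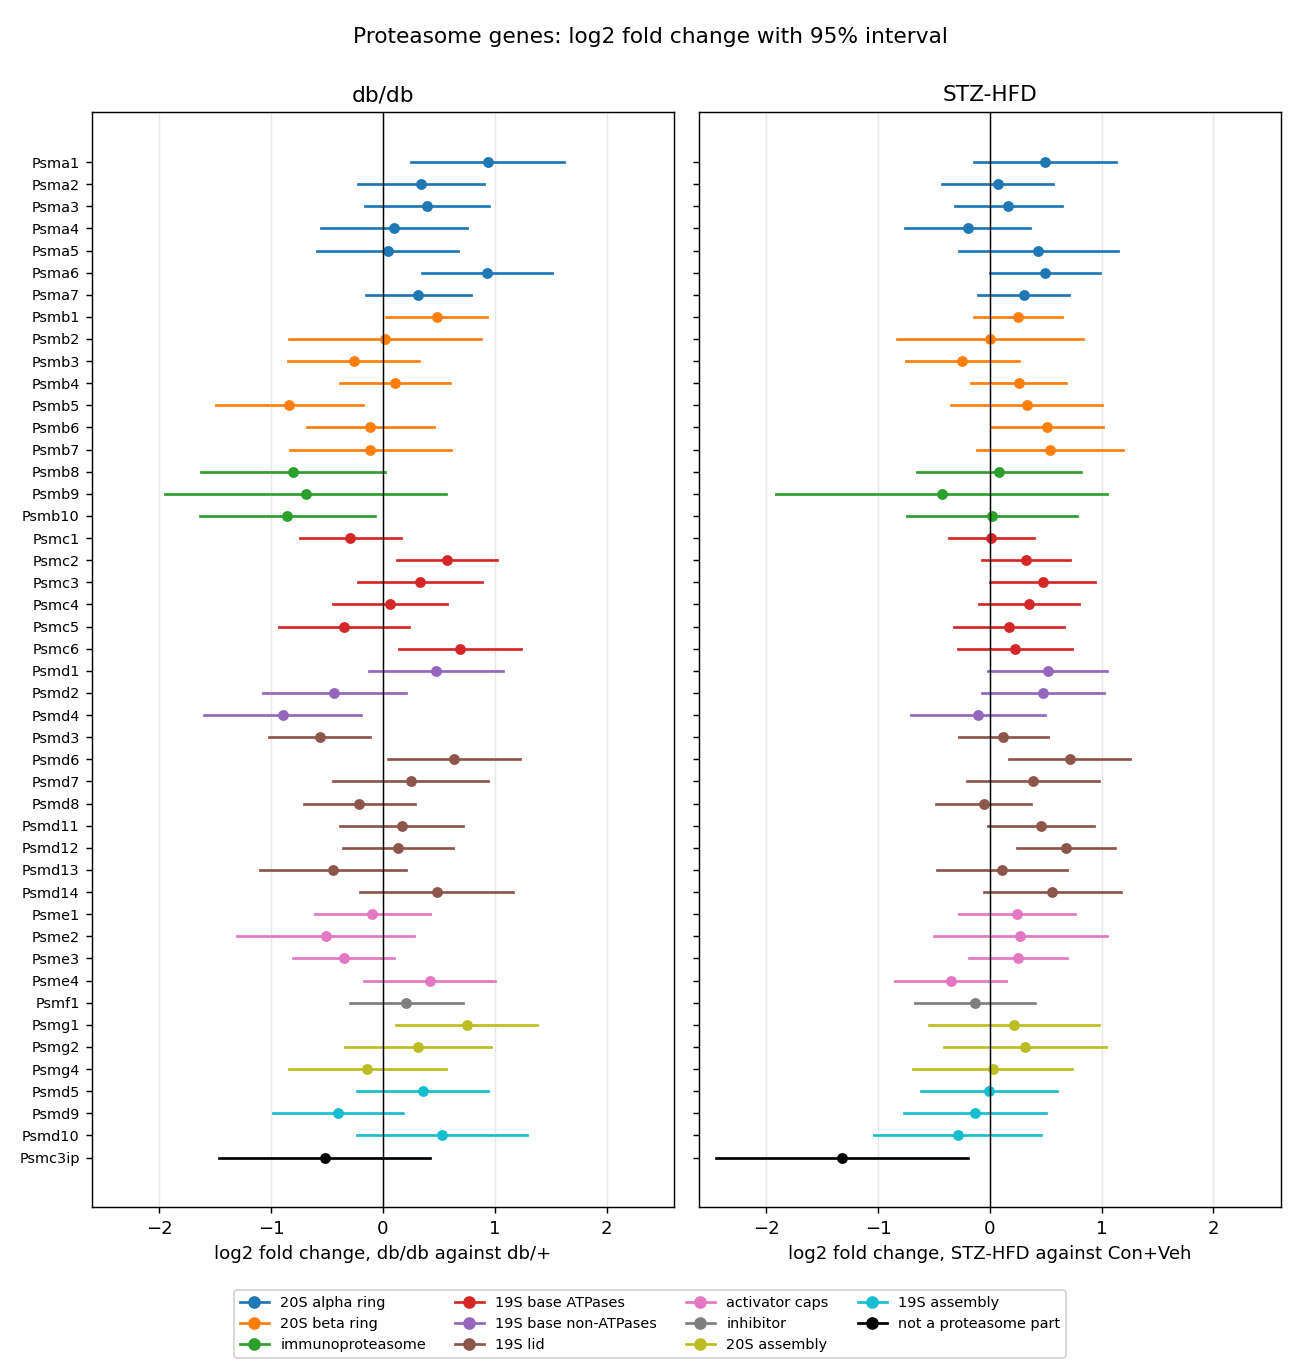
log2 fold change (points) with 95% interval (lines) of the 46 tested genes, coloured by class, for db/db against db/+ (left) and STZ-HFD against Con+Veh (right). In STZ-HFD 35 points lie above 0 and in db/db 26, with the immunoproteasome genes below 0 in db/db.

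*Psmd12* (ENSMUSG00000020720, chr11:107479484-107504362, GRCm38), a structural subunit of the 19S lid, had the smallest p. It was at 24.7, 22.4, 30.7 and 34.3 CPM in STZ-HFD and at 14.5, 30.5, 19.6 and 14.9 CPM in Con+Veh, so that Con+Veh replicate 2 lay among the STZ-HFD libraries. The log2 fold change was 0.68 (SE 0.21) at an adjusted p of 0.0804 (limma with Benjamini-Hochberg adjustment). Without Con+Veh replicate 2 *Psmd12* was past the threshold (adjusted p = 0.0297), as it was without STZ-HFD replicate 2 (adjusted p = 0.0458) and with the GC trend removed (adjusted p = 0.0442). Under the other 24 of 27 alternatives it was not, with adjusted p up to 0.9995 (without Con+Veh replicates 3 and 4), among them 0.432 with edgeR, 0.416 without Con+Veh replicate 3 and 0.427 without STZ-HFD replicate 3. *Psmd6*, another lid subunit, was at 19.8, 14.2, 26.5 and 24.5 CPM in STZ-HFD and at 6.41, 30.6, 12.2 and 15.0 CPM in Con+Veh, with a log2 fold change of 0.71 (SE 0.26, adjusted p = 0.143). That fold change ran from 0.40 to 0.85 over 28 alternatives. The Con+Veh libraries of *Psmd6* enclosed all STZ-HFD libraries.

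*Psmb6*, which carries the caspase-like site, was at 43.0, 38.2, 43.4 and 35.7 CPM in STZ-HFD and at 13.2, 27.6, 27.8 and 31.6 CPM in Con+Veh. The groups were separated, and the log2 fold change was 0.51 (SE 0.24, adjusted p = 0.268), or 1.03 without Con+Veh replicates 3 and 4 and -0.01 with the muscle covariate. *Psma6* was at 55.3, 46.01, 104.7 and 76.9 CPM in STZ-HFD and at 26.3, 88.5, 54.2 and 53.9 CPM in Con+Veh, with a log2 fold change of 0.50 (SE 0.23, adjusted p = 0.279). *Psmc3*, a 19S ATPase, was at 111, 180.3, 275 and 194 CPM in STZ-HFD and at 110.2, 150.1, 155 and 146 CPM in Con+Veh, with a log2 fold change of 0.47 (SE 0.22, adjusted p = 0.279). In *Psma6* and *Psmc3* the ranges overlapped, with STZ-HFD replicate 3 the highest library of both. *Psmc3ip* was at 1.36, 1.58, 0.466 and 1.58 CPM in STZ-HFD and at 1.06, 2.29, 2.16 and 4.35 CPM in Con+Veh, with a log2 fold change of -1.33 (SE 0.54, adjusted p = 0.193), and its exons overlap those of *Mlx*. Over 28 alternatives the log2 fold change of *Psmc3ip* ran from -2.83 to -0.69.

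Of the immunoproteasome genes in STZ-HFD, *Psmb9* changed direction between the weighted fit and fits without sample weights, while *Psmb8* and *Psmb10* were above 0 in both. *Psmb8* was at 4.32, 5.74, 4.41 and 6.45 CPM in STZ-HFD and at 1.39, 4.24, 6.44 and 4.73 CPM in Con+Veh. *Psmb10* was at 9.91, 9.66, 4.10 and 5.98 CPM in STZ-HFD and at 3.18, 3.95, 5.88 and 7.55 CPM in Con+Veh. *Psmb9* was at 2.097, 2.03, 0.404 and 0.505 CPM in STZ-HFD and at 0.353, 0.706, 1.13 and 0.760 CPM in Con+Veh. All 3 overlapped between the groups, and replicates 1 and 2 of STZ-HFD were higher than replicates 3 and 4 in *Psmb9* and *Psmb10*. The log2 fold changes were 0.08 for *Psmb8* (SE 0.35, adjusted p = 0.937), 0.02 for *Psmb10* (SE 0.36, adjusted p = 0.987) and -0.43 for *Psmb9* (SE 0.70, adjusted p = 0.801). The weighted fit put *Psmb9* below 0 although its mean CPM was 1.26 ± 0.930 in STZ-HFD and 0.737 ± 0.317 in Con+Veh (SD, n = 4 each). Fits without sample weights put all 3 above 0, at 0.32, 0.53 and 0.78 for *Psmb8*, *Psmb10* and *Psmb9* with edgeR, 0.35, 0.56 and 0.81 with DESeq2, and 0.61, 0.60 and 0.49 with unweighted voom, and none passed the adjusted p in these fits.

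**Figure D4:**
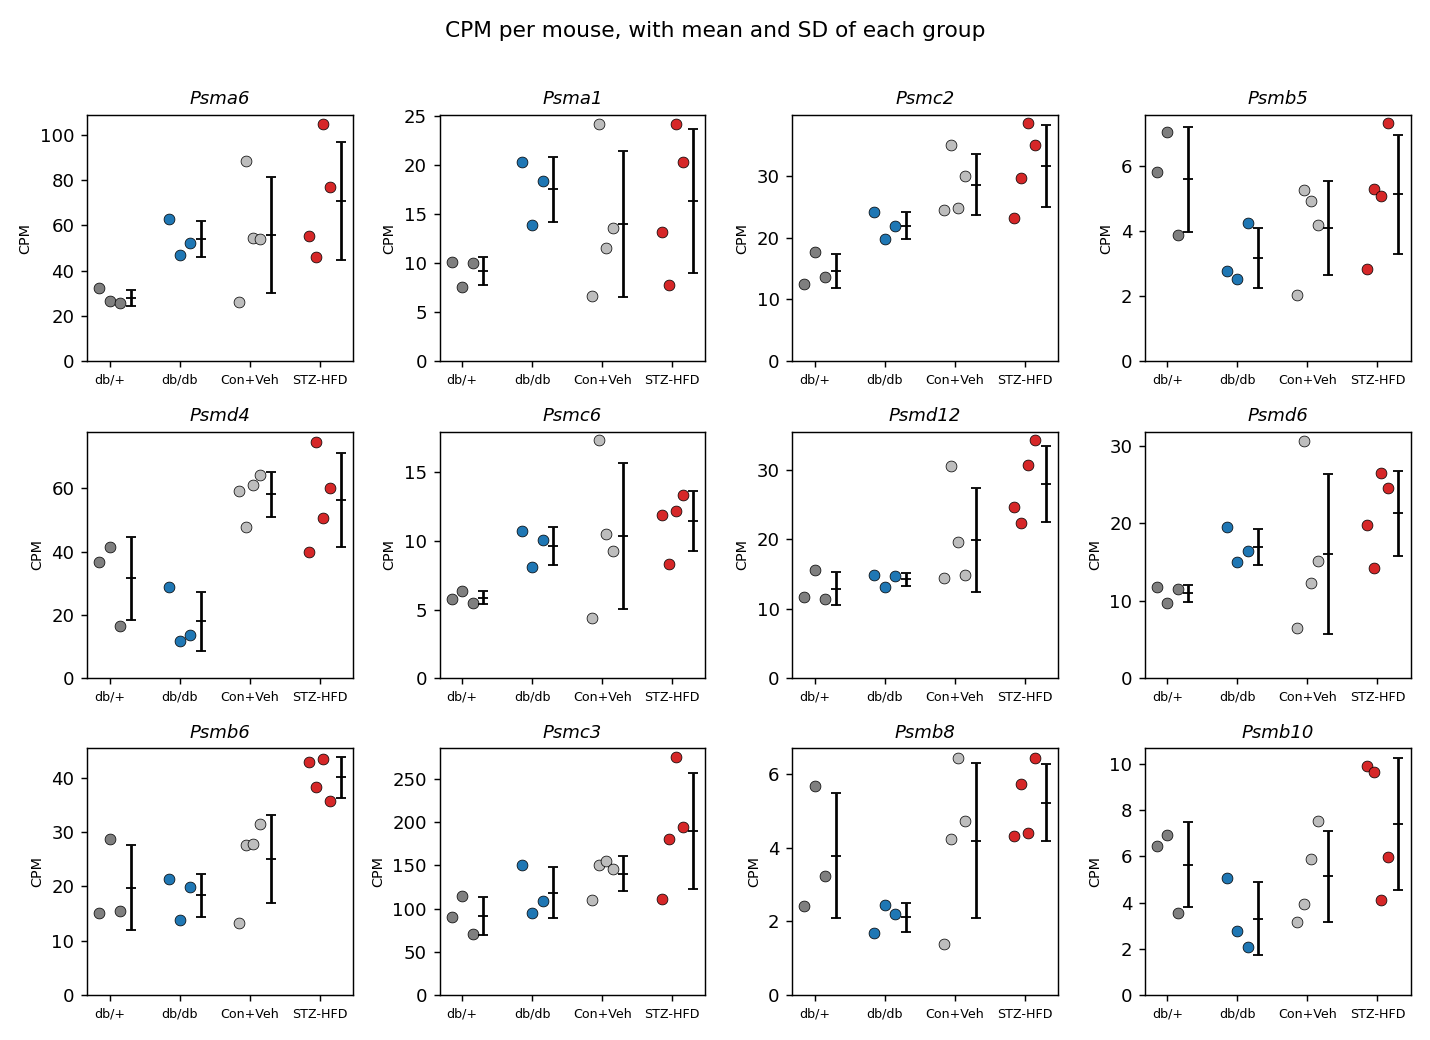
CPM per mouse (points), with the mean and SD of each group (bars), for 12 proteasome genes, on axes that start at 0. *Psma6*, *Psma1*, *Psmc2* and *Psmc6* are separated between db/db and db/+, and *Psmb6* between STZ-HFD and Con+Veh.

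Muscle markers differed between the groups in both models, in the direction of the members' median in STZ-HFD and in the opposite direction in db/db. All 12 muscle markers were lower in db/db and 12 of 12 were higher in STZ-HFD by log2 fold change. Of these, 1 and 4 passed the adjusted p of limma (Benjamini-Hochberg), beside 1.93% and 3.45% of all genes. With the muscle marker score of each library as a covariate, the median log2 fold change of the members in db/db was 0.35 (36 above 0), with 9 higher and 1 lower at an unadjusted p under 0.05, and 0 members were called in either model. *Psmc3* was then at -0.24 in STZ-HFD, and in db/db *Psmb5* was at -0.44 and *Psmb10* at -0.0054. The part of muscle tissue in the measured levels was not tested, since in STZ-HFD the score and the group went largely together and this fit cannot separate them. Other cell types differed too, with 6 of 11 disc and cartilage markers past the adjusted p and lower in STZ-HFD (median log2 fold change of the list -1.45), 2 of 6 endothelial markers higher in db/db, 0 of 6 past it in STZ-HFD, 3 of 8 macrophage markers lower in STZ-HFD, and lymphocyte markers summing to at most 3.79 CPM in any library. Of 8 adipocyte markers, 7 were above 0 in db/db (median log2 fold change 1.51) and 8 in STZ-HFD (median 0.64), of which 5 and 1 (*Plin4*) passed the adjusted p. Their summed level was 1246 to 1741 CPM in STZ-HFD against 679.7 to 1185 CPM in Con+Veh.

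The third comparison asks whether the 2 models differ in their response, as the db/db contrast minus the STZ-HFD contrast. Of the 46 genes, 0 passed the adjusted p, where 1.77% of all genes did (limma with Benjamini-Hochberg adjustment). At an unadjusted p under 0.05, 1 was above 0 (*Psme4*) and 3 were below (*Psmb5*, *Psmd3* and *Psmd2*), where 17.3% of all genes met that mark. With 1 library left out, these counts ran from 0 to 2 above and from 0 to 7 below, with 7 below without db/+ replicate 3, 1 above and 0 below without db/+ replicate 2, and 2 and 2 without STZ-HFD replicate 3. The difference was -1.17 for *Psmb5* (SE 0.45, adjusted p = 0.183), -0.69 for *Psmd3*, -0.91 for *Psmd2* and 0.77 for *Psme4*. *Psmd3* and *Psmd2* are a lid and a base subunit, and *Psme4* encodes the activator PA200. In the edgeR and DESeq2 fits 0 passed after adjustment. The members' median difference was -0.14, and with 1 library left out it ran from -0.27 (without db/+ replicate 3) to 0.0058 (without db/db replicate 2). Without Con+Veh replicates 3 and 4 together it was -0.38, with 13 of 46 above 0. With the muscle score as covariate the median was 0.59 (36 of 46 above 0), with 8 above and 1 below at the unadjusted mark.

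The balance of inducible and standard catalytic subunits was compared per mouse as a log2 ratio of CPM. In db/db the mean ratio of *Psmb10* to *Psmb7* was -1.01 ± 0.78 and in db/+ it was -0.29 ± 0.15 (SD, n = 3 each). The difference was -0.72 without overlap, though the nearest mice were close (-0.45 in db/db replicate 1, -0.42 in db/+ replicate 3). Its two-sided exact permutation p was 0.1, which is the smallest that 3 against 3 can give, and 0.6 after Benjamini-Hochberg adjustment over 6 tests. Without db/db replicate 3 the difference was -0.27, and with transcript totals it was -1.13. *Psmb10* has 56.52% GC and *Psmb7* 40.79%, and the ratio was not computed with the GC trend removed. The ratio of *Psmb8* to *Psmb5* differed by 0.05 and that of *Psmb9* to *Psmb6* by -0.69 in db/db, both overlapping, and the latter ran from -0.18 to -1.41 with 1 library left out (without db/db replicate 1 and without db/+ replicate 2). In STZ-HFD the differences were 0.16, -0.26 and -0.03 for the ratios of *Psmb8* to *Psmb5*, *Psmb9* to *Psmb6* and *Psmb10* to *Psmb7* (exact permutation p of 0.6, 0.686 and 0.914). The smallest p that 4 against 4 can give is 0.0286. *Psmb5* and *Psmb8* both had log2 fold changes below 0 in db/db, of -0.84 and -0.81.

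**Figure D5:**
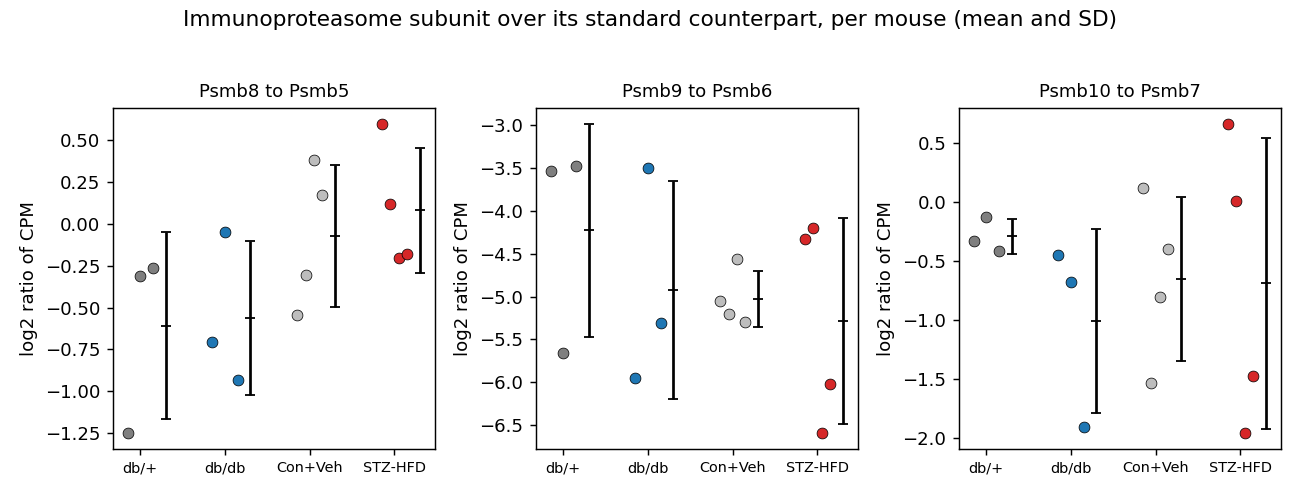
log2 ratio of CPM of each immunoproteasome subunit to its standard counterpart, per mouse (points), with the mean and SD of each group (bars). The ratio of *Psmb10* to *Psmb7* lies lower in all db/db mice than in db/+ mice, narrowly for the nearest mice (-0.45 and -0.42), and the other ratios overlap.

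The genes that work with the proteasome were read from lists that the name rule does not cover. Of all genes tested, 1.93% passed the adjusted p alone in db/db, 3.45% in STZ-HFD and 1.77% in the difference of the contrasts. The calls of list genes were not followed through the alternative fits. Of 17 tested proteasome partners, *Adrm1*, a ubiquitin receptor of the 19S cap, was lower in db/db (log2 fold change -1.23, SE 0.31, adjusted p = 0.0497), and *Ubqln2*, a shuttle that carries ubiquitinated proteins to the proteasome, was lower in STZ-HFD (-1.03, SE 0.25, adjusted p = 0.0321). The other 16 in each model did not pass the adjusted p (limma with Benjamini-Hochberg adjustment), among them *Pomp*, the maturation chaperone of the core, at 0.58 and 0.69. Of the 12 genes that control proteasome transcription, 0 passed in either model. *Nfe2l1*, the factor that raises proteasome genes when proteolysis falters, was at -0.72 in db/db (adjusted p = 0.183) and 0.46 in STZ-HFD (adjusted p = 0.364).

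Among 13 genes of ubiquitin and its activating or conjugating enzymes, 2 passed in db/db and 0 in STZ-HFD (limma with Benjamini-Hochberg adjustment), beside 1.93% and 3.45% of all genes. The 2, both higher in db/db, were the ubiquitin-ribosomal fusion gene *Rps27a* (1.63, SE 0.28, adjusted p = 0.0127) and the conjugating enzyme *Ube2d3* (1.39, SE 0.35, adjusted p = 0.0475). Among 7 ubiquitin ligases known from muscle, *Fbxo30* rose in db/db (1.13), and *Trim63* (1.36), *Fbxo40* (1.34) and *Fbxo32* (0.93) rose in STZ-HFD, where the muscle markers were higher as well. The difference between the models passed the adjusted p for *Rps27a* (1.69, adjusted p = 0.0308) and *Trim63* (-2.26, adjusted p = 0.0176). Among 13 genes of antigen processing and interferon control, which share inducers with the immunoproteasome, 0 passed in db/db and 2 in STZ-HFD. These were *Tapbp* (-0.98) and *B2m* (-1.17), both lower. The list was mixed in STZ-HFD, with 6 genes above 0 and 7 below (median -0.17), among them *Tap2* at 1.06 and *Erap1* at 0.80, which did not pass. Macrophage markers were lower in STZ-HFD as well, and a link was not tested.

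The separate table of transcript estimates gave the transcripts behind some of these genes. For *Psma6*, 99.98% of its estimated counts fell on the protein-coding transcript Psma6-201. For *Psmb8*, *Psmb6* and *Psmb4* most fell on a transcript annotated as retaining an intron (72.2%, 75.3% and 78.9%), and for *Psmc3* 100% fell on transcripts not annotated as protein-coding. *Psmd12* had only 0 to 3 estimated counts per library in that table while its gene counts ran from 274 to 1469. With gene totals from that table, the db/db log2 fold change was -0.06 for *Psmb5* and -1.76 for *Psmb8*. Both tables were made from the same reads by different programs, and which is closer to the RNA was not tested.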

How the data were processed

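RNA of 14 libraries was analysed from the gene counts that the authors deposited, whole numbers without normalization, made by alignment with STAR 2.7.9a1 to a GRCm38 Ensembl annotation and counting with featureCounts 2.0.32 (versions as printed in the submitters' notes). A deposited table of estimated counts per transcript, made by the authors with Salmon 1.5.23, was summed per gene, rounded and used for 1 alternative and for the transcript shares. Of 55774 lines of the gene table, 287 repeated an identifier with identical values and were used once. Strand setting of the counting is not given in the sources used here.

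Genes with CPM over 1 in at least 3 libraries were kept. TMM factors (edgeR 4.0.16) and limma 3.58.1 (voomWithQualityWeights, R 4.3.3) were used, fitting 4 group means, and Benjamini-Hochberg adjustment over all 16915 genes in each contrast. This follows the study's methods, so edgeR's quasi-likelihood test and DESeq2 1.42.0 were alternatives. CPM per mouse use library totals times TMM factors. Ratios used a prior count of 2. Lengths, positions and GC content came from an earlier GENCODE annotation of the same build. Total counts of 16076908 to 58943169 set the precision of low genes. The scripts were tested on simulated data.

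Named were, per model, the immunoproteasome genes and the members past an adjusted p of 0.05 or, where fewer than 6 passed, the 6 with the smallest p. Other members that are named were chosen after their values were seen. The members and lists were chosen with earlier results of these data known. Alternatives were those 2 tests, no quality weights, RLE factors, other filters, each model alone, a replicate block, transcript totals, GC trend removal, a muscle covariate, another prior count and left-out libraries. Leaving out both libraries of lowest weight, and leaving out Con+Veh replicates 3 and 4, were chosen after seeing the data.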

Additional observations from a re-analysis of the deposited data

Results flagged for a closer look

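In groups of 4 mice, 135 sets of values were searched for a library far from the others of its group. Chance alone flags about 1 in 20 such sets. Here 7 of the 135 were flagged, close to that share, and all are listed. The summed level of skeletal muscle markers was 7733 CPM in STZ-HFD replicate 1, against 21060 to 23730 CPM in the other STZ-HFD libraries. *Psma8* had 48 counts in STZ-HFD replicate 1 and 0 in the other STZ-HFD libraries. *Psmb11* had 11 counts in Con+Veh replicate 1 and 0 to 1 in the others. Among the tested members, *Psmc5* was at 50.4 CPM in Con+Veh replicate 1 against 101.9 to 111.1 CPM in the others, and *Psmb3* was at 13.5 CPM in the same library against 41.1 to 45.9 CPM. *Psmd10* was at 5.82 CPM in Con+Veh replicate 2 against 4.16 to 4.24 CPM, and *Psmd13* at 26.03 CPM in STZ-HFD replicate 2 against 15.3 to 16.4 CPM. The other 42 tested members, their sum and median, and the subunit ratios did not stand apart by this measure.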

How the results depend on the processing

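No alternative called a member with both criteria in either model, or in the difference of the contrasts. By adjusted p alone the count became 1 in db/db (*Psma6*) with each model fitted alone, and 1 in STZ-HFD (*Psmd12*) with the GC content trend removed. Leaving out 1 library at a time gave counts of 0 to 1 in STZ-HFD, 1 without Con+Veh replicate 2 and without STZ-HFD replicate 2, and member medians of -0.06 to 0.25 for db/db and 0.13 to 0.31 for STZ-HFD. With no filter on low counts the median of all genes shifted to -0.18 and -0.36 in the db/db and STZ-HFD contrasts, and the members' medians were 0.12 and 0.25. Mice of the same replicate number had mean correlations of their deviations from the group mean of -0.09 in db/db and -0.11 in STZ-HFD. Single pairs ran from -0.28 to 0.19 and from -0.26 to -0.04, too few to exclude a pairing. The means otherwise (0.05 and 0.04) are tied to these because each group was centred on its own mean. A replicate block left 0 calls and medians of 0.10 and 0.25. Signs changed as follows, and the cause was not tested. With transcript totals the *Psmb8* to *Psmb5* ratio differed by -1.63 (db/db) and by -0.56 (STZ-HFD). With 1 library left out that ratio ranged from -0.28 to 0.23 in db/db and from -0.016 to 0.31 in STZ-HFD, and in STZ-HFD the *Psmb9* to *Psmb6* ratio ranged from -0.62 to 0.18 and the *Psmb10* to *Psmb7* ratio from -0.49 to 0.39. With the muscle covariate *Psmd4* was at 0.20 in db/db, and in STZ-HFD *Psmb6* was at -0.010, *Psmc3* at -0.24, *Psmb8* at -0.017, *Psmb9* at 0.97 and *Psmb10* at -0.82. In STZ-HFD *Psmb9* was at 0.78 with edgeR, 0.81 with DESeq2, 0.49 without quality weights and 0.16 with transcript totals. Without both libraries whose names share an ending, *Psmb8* was at -0.043 and *Psmb9* at 0.031. Without Con+Veh replicate 1 and STZ-HFD replicate 1 together, *Psmb8* was at -0.093 and *Psmb10* at -0.15. Without Con+Veh replicates 3 and 4 together, *Psmb9* was at 0.30. With 1 library left out, *Psmb8* ranged from -0.084 to 0.54, *Psmb9* from -0.72 to 0.082 and *Psmb10* from -0.11 to 0.37. Depth limits *Psmb9* most, at 13 to 86 counts per library. Each model fitted alone gives no difference of the contrasts and did not keep *Psmb9* in STZ-HFD, and *Psmd12* was not among the 43 members that could be tested with transcript totals.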
